A study of Rattus norvegicus with 8 samples.

Results

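Genes of pituitary melanotrophs, the endocrine cells of the intermediate lobe, were followed in RNA sequencing libraries of the neurohypophysis. They are the 7 genes Pomc, Tbx19, Crhr1, Drd2, Oacyl, Gpr83 and Neurod1, chosen by symbol as genes of the melanotroph and of its regulation. Not all are particular to melanotrophs. Pomc, Tbx19 and Crhr1 also mark corticotrophs of the anterior lobe, and Neurod1 is known to activate Pomc in corticotrophs. All 7 have a row among the 33294 genes of the deposited table. The study asked how gene expression in this tissue changes with age. The libraries came from male Sprague Dawley rats of 125 days (n = 4) and of 35 days (n = 4, named as the control in the labels), perfused with PBS under isoflurane before the neurohypophysis, or neural lobe, was frozen. All animals were of 1 sex and 1 strain, and no allele, diet or drug treatment separates the ages. Whether each numbered sample is its own animal is not said in the labels; p-values therefore speak only of how far these samples spread, and some of that spread may be technical.

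The intermediate lobe is a thin endocrine layer that lies against the neural lobe. Its melanotrophs make the precursor POMC and cut it with the convertases PCSK1 and PCSK2 into alpha-melanocyte-stimulating hormone and beta-endorphin, whereas corticotrophs of the anterior lobe cut the same precursor mainly to ACTH. Dopamine from hypothalamic nerve fibres holds melanotrophs back through the receptor DRD2, and the lineage is set by the T-box factor TBX19 together with PAX7.

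The promoter sequences of 3 genes are shown, because Pomc had the highest mean value of the table and Crhr1 and Gpr83 had the largest age changes among the 7. They are the 250 bases before the annotated start, from RefSeq, build GRCr8, a different build from that of the deposited table (rn7). Capitals mark letters of the motifs searched. On both strands these were the T-box motif TCACACC bound by TBX19, the E-box CATCTG that NEUROD1 can bind, the bicoid-type motif TAATCC of PITX factors, the motif AAGGTCA of NR4A factors and the cAMP response letters TGACGT, and on the forward strand the TATA box, TATAAA.
Pomc, chr6:32659103-32659352, plus strand: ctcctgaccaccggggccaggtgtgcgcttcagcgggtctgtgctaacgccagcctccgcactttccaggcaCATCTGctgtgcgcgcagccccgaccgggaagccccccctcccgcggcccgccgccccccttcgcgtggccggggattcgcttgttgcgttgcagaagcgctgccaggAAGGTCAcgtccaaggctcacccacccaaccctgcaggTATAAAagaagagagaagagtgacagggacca
Crhr1, chr10:89539959-89540208, plus strand: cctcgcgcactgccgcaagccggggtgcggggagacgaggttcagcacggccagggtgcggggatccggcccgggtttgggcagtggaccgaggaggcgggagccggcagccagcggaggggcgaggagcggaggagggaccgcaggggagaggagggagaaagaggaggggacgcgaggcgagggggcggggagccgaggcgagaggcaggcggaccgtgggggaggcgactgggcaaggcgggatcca
Gpr83, chr8:19974745-19974994, plus strand: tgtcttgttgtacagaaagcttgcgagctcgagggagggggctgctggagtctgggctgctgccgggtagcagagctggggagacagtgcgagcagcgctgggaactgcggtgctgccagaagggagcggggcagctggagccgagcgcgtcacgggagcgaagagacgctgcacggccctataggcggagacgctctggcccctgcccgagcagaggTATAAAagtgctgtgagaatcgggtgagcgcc
The Pomc window holds the E-box letters from position -178 to -173, the NR4A letters from -70 to -64 and the TATA letters from -32 to -27, counted from the annotated start. Gpr83 has the TATA letters at the same distance, and the Crhr1 window holds none of the 6 motifs. Among 27457 promoters of the same length, 13.7% hold the E-box letters, 3.77% the NR4A letters and 8.38% the TATA letters. All 7 genes had an entry. Within these 250 bases, Pomc alone of them holds the E-box or NR4A letters. None of the 7 windows holds the T-box, bicoid or cAMP response letters, which 3.19%, 6.33% and 7.25% of promoters hold. Sequence further upstream was not searched, so such motifs may lie there.

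The libraries held 28429133 to 58696254 reads in genes. Values are depth-normalized counts, that is, reads of a gene divided by 1 size factor per library, and they do not account for gene length, so a higher value of one gene than of another says which took more reads, not which had more transcripts. Melanotroph markers were present in every library, none at 0. Pax7, which separates melanotrophs from corticotrophs, was at 9716 to 12113 at 125 days and at 7697 to 13398 at 35 days. In bulk tissue, more cells of a type and more RNA per cell cannot be told apart. RNA of the anterior lobe was present too. The summed value of 12 anterior lobe markers, led by Gh1, Prl and Cga, ran from 6611 to 50293 at 125 days and from 24469 to 1394981 at 35 days, with none of the 12 at 0 in any library, 5 of them lower at 125 days and 7 not past the threshold. The highest sum was in 35-day replicate 3, a library that also stands apart from the others in overall expression. The summed value of 9 pituicyte markers, led by Slc1a3, Col25a1 and Vim, ran from 30272 to 45640 at 125 days and from 46706 to 60735 at 35 days, with 3 of 9 lower, or 6 of 9 without 35-day replicate 3 and 5 of 9 with the anterior lobe covariate. Of 10 endothelial markers 8 were lower, and their sum ran from 13754 to 27139 at 125 days and from 22660 to 30763 at 35 days. Dropping 35-day replicate 3 also gave 8 lower endothelial markers, where 14.8% of all genes tested were lower. Adjusting for the anterior lobe level gave 5, where 7.28% of all genes tested were lower. In these marker lists, lower means past the threshold given below, which 8.87% of all genes tested met in that direction in the main fit.

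Of the 7 genes, 2 rose with age, Crhr1 and Oacyl, and 2 fell, Gpr83 and Neurod1, while Pomc, Tbx19 and Drd2 did not pass the threshold in limma on log2(value + 1). The threshold was an adjusted p below 0.05 over all 17919 genes tested. In the same fit 17.7% of all genes tested passed, 8.85% higher and 8.87% lower at 125 days. Gpr83 passed the filter on low values through its 35-day libraries alone, so its call adds nothing to that count. The ages did not overlap for Crhr1 and Neurod1, nor for Gpr83, to which the same limit applies; 24.9% of all genes tested did not overlap. Leaving out 35-day replicate 3 left 4 of the 7 called, where 30.7% of all genes tested passed (15.9% higher, 14.8% lower), and the anterior lobe covariate left 2, Crhr1 and Gpr83, where 14.5% passed. The median log2 change was 0.26 over the 7 genes and 0.01 over all genes tested.

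**Figure D1:**
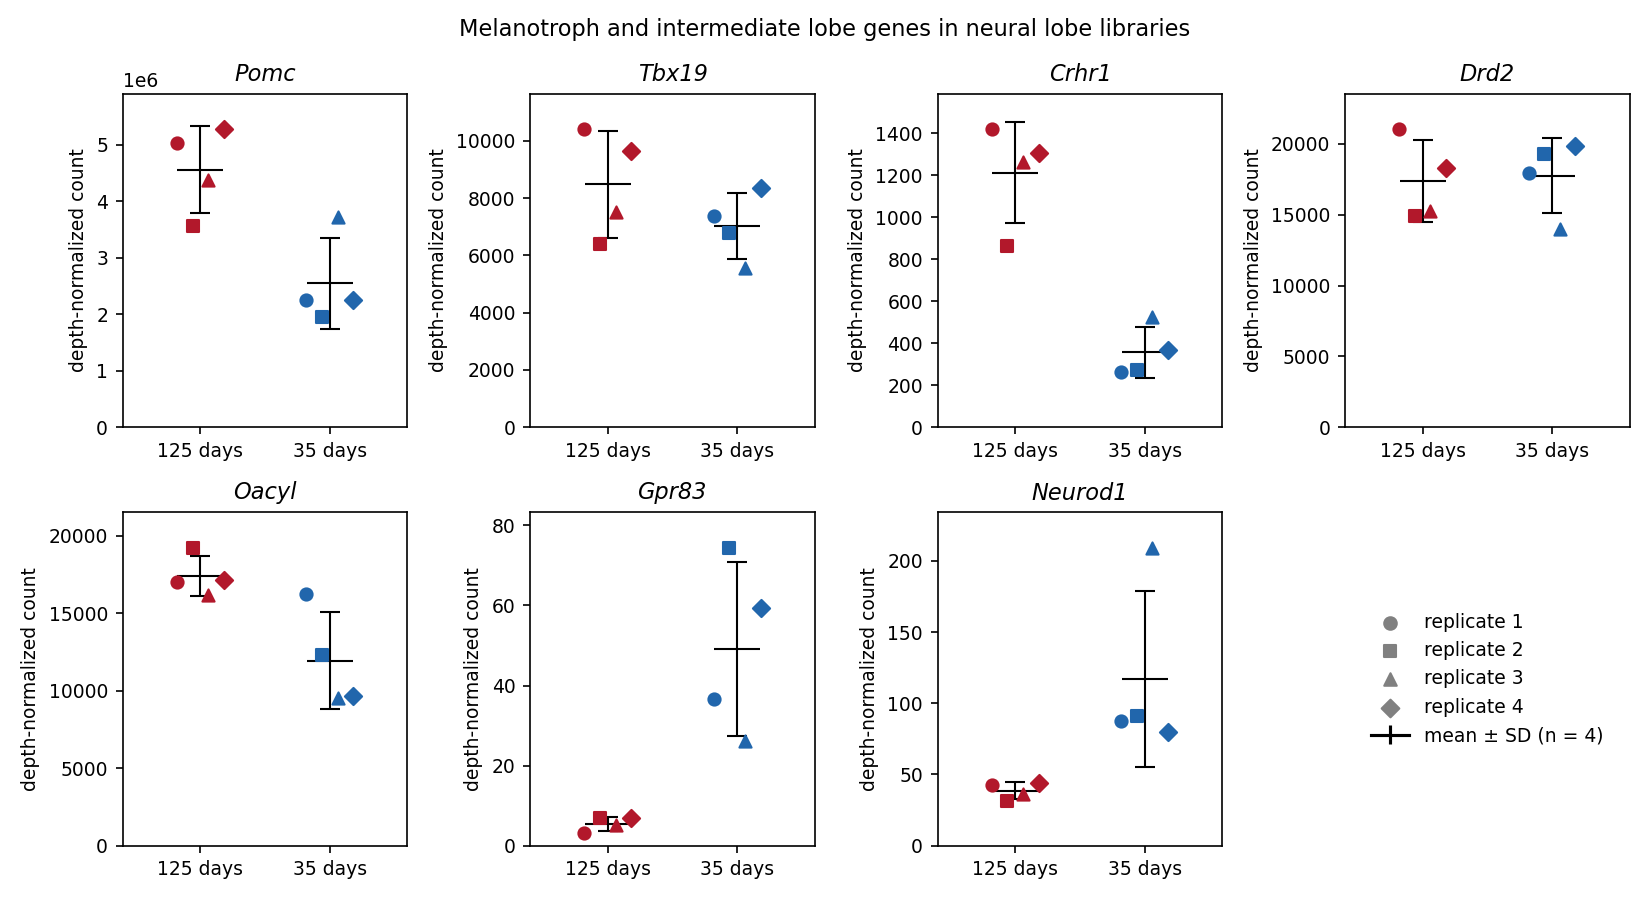
Depth-normalized count of each of the 7 genes in the 4 libraries of 125 days (red) and the 4 of 35 days (blue), with the mean and SD of each age; symbols mark the replicate number and each panel has its own axis from 0. Crhr1 lies between 864 and 1420 at 125 days, above all 35-day libraries (264 to 524), and Gpr83 and Neurod1 lie below them.

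Pomc, the hormone precursor gene, was at 5024109, 3555298, 4374428 and 5272642 depth-normalized counts in 125-day replicates 1 to 4, against 2248920, 1957148, 3724079 and 2246292 in 35-day replicates 1 to 4. The 35-day replicates 1, 2 and 4 lay below every 125-day library, and 35-day replicate 3 lay just above 125-day replicate 2, so that the ages overlapped. The means were 4556619 ± 767479 at 125 days and 2544110 ± 798474 at 35 days (SD, n = 4 each). The log2 change was 0.87 (SE 0.57, 95% interval -0.40 to 2.14, limma adjusted p = 0.333). That SE was set by the intensity trend at the top of the expression range, where Pomc has the highest mean of the table. The SE from its own 8 values was 0.24. Without the trend the adjusted p was 0.0286, in edgeR 0.0478 and in DESeq2 0.00127, all with Pomc higher at 125 days. In these fits 16.4%, 17.7% and 23.4% of all genes tested passed. When limma was run without 35-day replicate 3, the Pomc change was 1.07 (SE 0.65, adjusted p = 0.244).

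As a share of all reads in genes, Pomc took 13.4, 10.1, 12.2 and 14.3% of 125-day replicates 1 to 4 and 6.44, 5.65, 10.2 and 6.78% of 35-day replicates 1 to 4. The mean difference was 5.23 percentage points (two-sided exact permutation p = 0.0571, where 70 arrangements allow no p below 0.0286). A gene of this size weighs on any scaling by library total. Scaling to the total without Pomc gave Pomc a log2 change of 0.89. It called 4 of the 7 genes, the same number as the deposited scaling, where 17.3% of all genes tested passed. Among the 4 is Gpr83, which passed the filter through its 35-day libraries alone and adds nothing to the count.

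Tbx19 encodes the T-box factor that activates Pomc transcription. It was at 10401, 6378, 7503 and 9648 depth-normalized counts in the 125-day libraries and at 7361, 6792, 5563 and 8334 in the 35-day libraries, replicates 1 to 4. The ages overlapped, with 125-day replicates 2 and 3 within the 35-day range. The log2 change was 0.26 (SE 0.17, 95% interval -0.13 to 0.65, limma adjusted p = 0.34), so a change of either sign up to the ends of that interval is not excluded.

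Neurod1 encodes a basic helix-loop-helix factor known to activate Pomc in corticotrophs. Its values were 42.7, 31.3, 36.6 and 44.0 depth-normalized counts at 125 days, from 29 to 45 reads per library, against 87.6, 90.9, 209 and 79.6 at 35 days. Every 125-day library was below every 35-day library, and 35-day replicate 3 stood far above the others of its age. Neurod1 fell by 1.46 on the log2 scale (SE 0.30, limma adjusted p = 0.00864), and by 1.15 (SE 0.19, adjusted p = 0.00201) without that library. With the mean level of the anterior lobe markers as a covariate, the log2 change was -0.85 (SE 0.31) and the call was lost (limma adjusted p = 0.0971). The anterior lobe sum was 1394981 in 35-day replicate 3, and its part in the Neurod1 values was not tested beyond that fit.

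Crhr1, the receptor for corticotropin-releasing hormone, showed the largest rise. It was at 1420, 864, 1262 and 1307 depth-normalized counts at 125 days, and at 264, 271, 524 and 366 at 35 days. The lowest 125-day library was well above the highest 35-day library. The means were 1213 ± 242 and 356 ± 121 (SD, n = 4 each), a ratio of 3.40, and the log2 change was 1.80 (SE 0.23, limma adjusted p = 7.17e-04). Under all 20 alternatives tried the adjusted p stayed below the threshold, with log2 changes of 1.67 to 2.32.

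Drd2, the dopamine receptor that restrains melanotrophs, was at 21037, 14915, 15277 and 18328 depth-normalized counts at 125 days, against 17921, 19322, 13967 and 19857 at 35 days. The ages overlapped, with the highest value at 125 days and the lowest at 35 days. The log2 change was -0.03 (SE 0.15, 95% interval -0.37 to 0.31, limma adjusted p = 0.914). Its sign turned positive, up to 0.04, when 1 of 125-day replicates 2 and 3 or of 35-day replicates 2 and 4 was left out.

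Gpr83 encodes a G protein-coupled receptor first described in mouse as glucocorticoid-induced. It was at 3.05, 6.84, 5.04 and 6.84 depth-normalized counts at 125 days, against 36.5, 74.4, 26.2 and 59.3 at 35 days. These values rest on 3, 7, 4 and 7 reads in the 125-day libraries and on 30, 72, 24 and 105 reads in the 35-day libraries. All 125-day libraries were far below all 35-day libraries. Gpr83 fell by 2.90 on the log2(value + 1) scale (SE 0.38, limma adjusted p = 7.76e-04), a scale that understates changes at such low counts. The mean was 9.02 times as high at 35 days.

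Oacyl encodes an acyltransferase-like membrane protein and marks melanotrophs in mouse pituitary. Its values were 17007, 19237, 16218 and 17156 depth-normalized counts at 125 days, against 16271, 12326, 9538 and 9673 at 35 days. The lowest 125-day library, replicate 3, lay just under 35-day replicate 1, and all other 35-day libraries were lower. Oacyl rose by 0.57 on the log2 scale (SE 0.17, limma adjusted p = 0.0403). The call was lost in 10 of 20 alternatives, namely without any 1 of the 125-day libraries or 35-day replicates 2 or 4, without a filter, without the trend, in edgeR and with the anterior lobe covariate, at adjusted p from 0.0532 to 0.403. In the covariate fit the log2 change was 0.22 (SE 0.17).

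**Figure D2:**
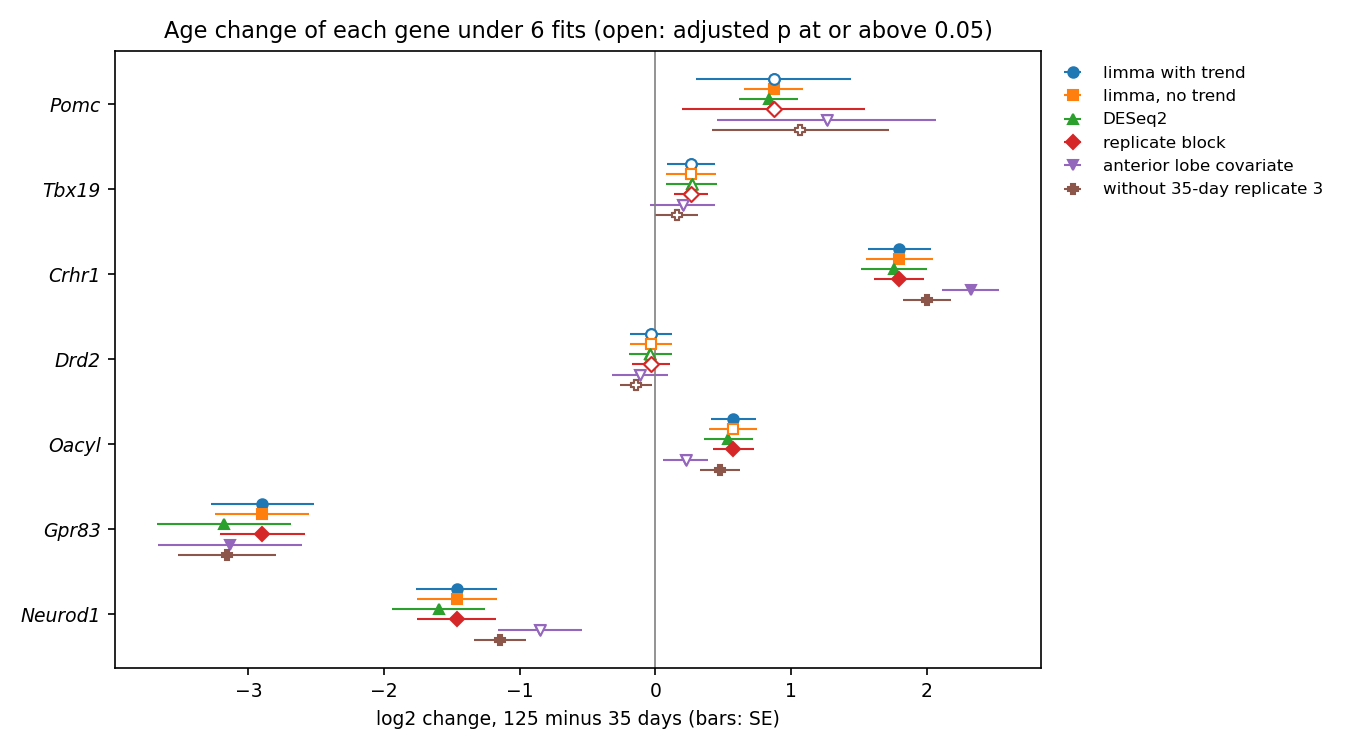
Log2 change of each gene, 125 minus 35 days, with its SE, under 6 fits; open symbols have an adjusted p at or above 0.05. Crhr1 stays between 1.76 and 2.32 and is called in each of the 6 fits, while Pomc is near 0.87 in limma with and without the trend but called, among these 6, only without the trend and in DESeq2.

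The 7 genes did not vary as 1 block between libraries of an age. In 35-day replicate 3, Pomc, Crhr1 and Neurod1 were above the mean of their age by 0.60, 0.61 and 0.96 on the log2 scale. In the same library Gpr83, Tbx19, Drd2 and Oacyl were below it, at -0.77, -0.32, -0.33 and -0.29, and so were Pax7 (-0.50), Pcsk1 (-0.42) and Pcsk2 (-0.58). That library had anterior lobe markers 2.16 above the mean of its age and pituicyte markers at -0.18. Among the 125-day libraries, replicate 2 was lowest in Pomc (-0.34), Tbx19 (-0.38), Crhr1 (-0.46), Drd2 (-0.21) and Neurod1 (-0.28) and highest in Oacyl (0.15). The same library had anterior lobe markers at -1.33, pituicyte markers at 0.37 and endothelial markers at 0.56. The part of these other cells in the member values was not tested.

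**Figure D3:**
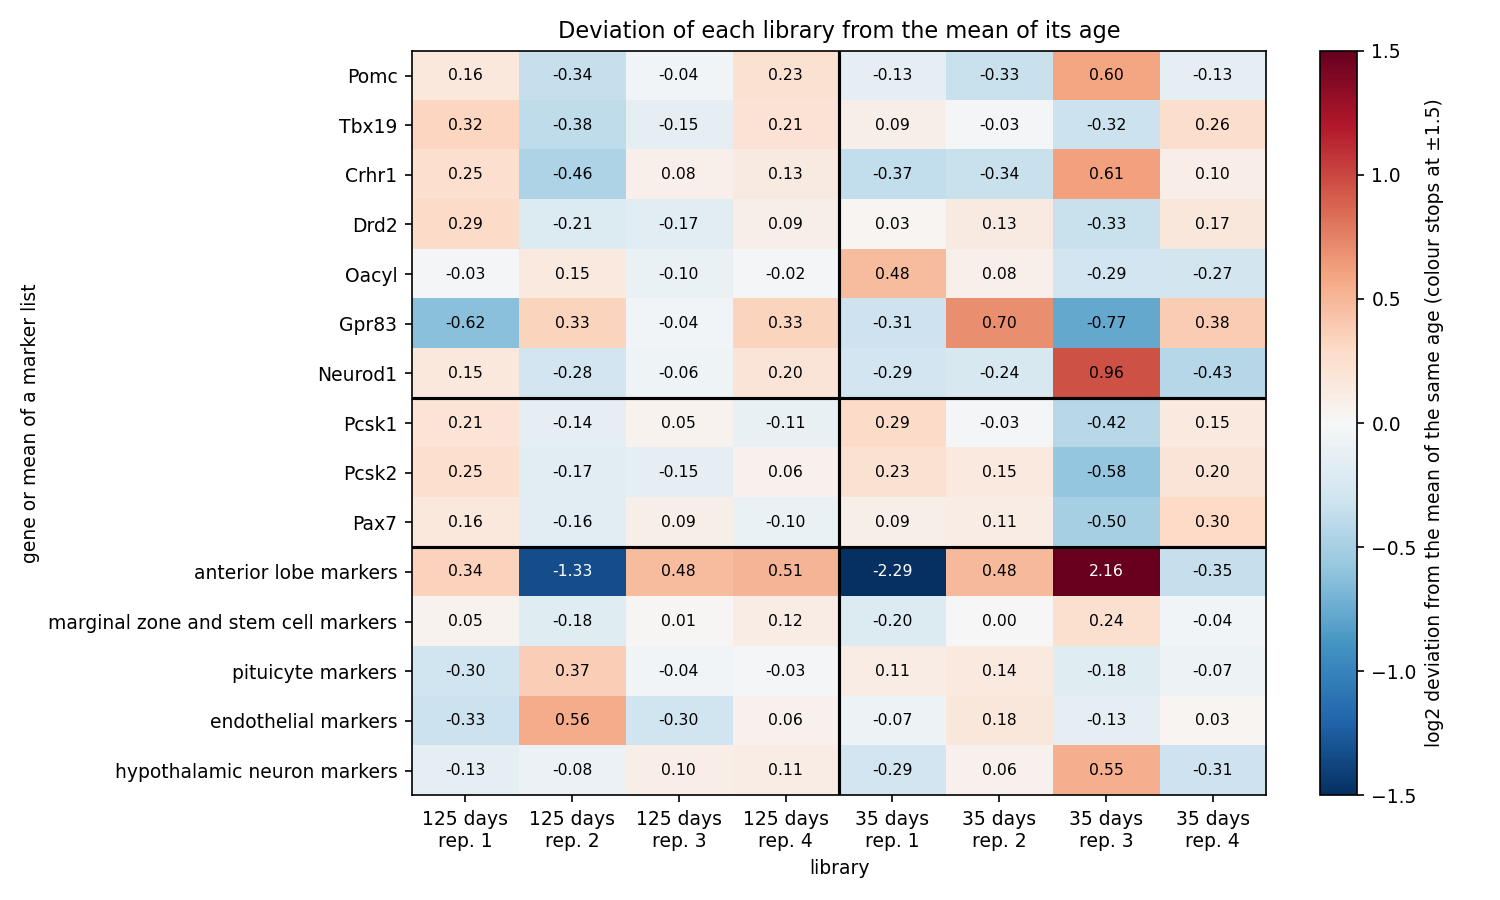
Log2 deviation of each library from the mean of its own age, for the 7 genes, for Pcsk1, Pcsk2 and Pax7, and for the mean of each list of other cell type markers; red is above and blue below. In 35-day replicate 3, Pomc (0.60), Crhr1 (0.61) and Neurod1 (0.96) are high while Gpr83, Tbx19, Drd2, Oacyl and Pax7 are low.

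Ratios within a library do not depend on the size factor, and were used to ask whether genes changed unequally. Over Pomc, 8 ratios were tested by a two-sided exact permutation test. Crhr1 was at -11.9 ± 0.127 (log2 of Crhr1 over Pomc) at 125 days and at -12.8 ± 0.193 at 35 days (SD, n = 4 each), a difference of 0.93 with no overlap. Neurod1 over Pomc was at -16.8 ± 0.0403 at 125 days, against -14.5 ± 0.289 at 35 days, a difference of -2.34 with no overlap. Neurod1 had only 29 to 45 reads per 125-day library, so that small SD is not read as a close link to Pomc. Gpr83 over Pomc differed by -3.77, also with no overlap, but Gpr83 passed the filter through its 35-day libraries alone, so that separation adds nothing. The ratios of Crhr1, Neurod1 and Gpr83 had the smallest exact permutation p that 4 against 4 allow (0.0286, adjusted p = 0.0762 over the 8), so none of the 8 passed. At that floor, passing depends on how many ratios of the family share it, not on the size of a difference. Drd2 over Pomc differed by -0.90 (exact permutation p = 0.0857, adjusted p = 0.137) and Tbx19 over Pomc by -0.61 (exact permutation p = 0.143, adjusted p = 0.19). In both, 35-day replicate 3 fell among or below the 125-day libraries, and without it the differences were -1.21 for Drd2 and -0.91 for Tbx19. Oacyl over Pomc differed by -0.30 (exact permutation p = 0.429, adjusted p = 0.49). The convertase genes did not pass over Pomc either, with differences of 0.70 for Pcsk1 (exact permutation p = 0.0571, adjusted p = 0.114) and -0.08 for Pcsk2 (exact permutation p = 0.914, adjusted p = 0.914).

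With Pax7 in place of Pomc, a choice made after the Pomc values had been seen, 9 ratios were tested. Those of Crhr1 (difference 1.80), Oacyl (0.58), Gpr83 (-2.89) and Neurod1 (-1.46), and of the convertase genes Pcsk1 (1.57) and Pcsk2 (0.80), did not overlap between the ages. Each had an exact permutation p = 0.0286, the floor of the test, and adjusted p = 0.0429, which rests on how many of the 9 share that floor. Gpr83 passed the filter through its 35-day libraries alone, so its separation adds nothing, though it is counted in the adjustment. For Oacyl the ages all but touched, with a lowest 125-day ratio of 0.489 and a highest 35-day ratio of 0.488. The Pcsk1 to Pax7 ratio had SDs of 0.0401 at 125 days and 0.171 at 35 days. Pomc over Pax7 was at 8.70, 8.52, 8.56 and 9.02 (log2) at 125 days, against 7.60, 7.38, 8.92 and 7.39 at 35 days. There 35-day replicate 3 lay within the 125-day range (difference 0.88, exact permutation p = 0.114, adjusted p = 0.147). Drd2 over Pax7 differed by -0.03 with overlapping ages, and Tbx19 over Pax7 differed by 0.27 (exact permutation p = 0.143, adjusted p = 0.161), so neither passed. Pax7 itself had a log2 change of -0.0066 (SE 0.17), so ratios over Pax7 largely repeat the changes of the genes themselves. In their values 24.9% of all genes tested did not overlap, and no such share was computed for ratios.

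**Figure D4:**
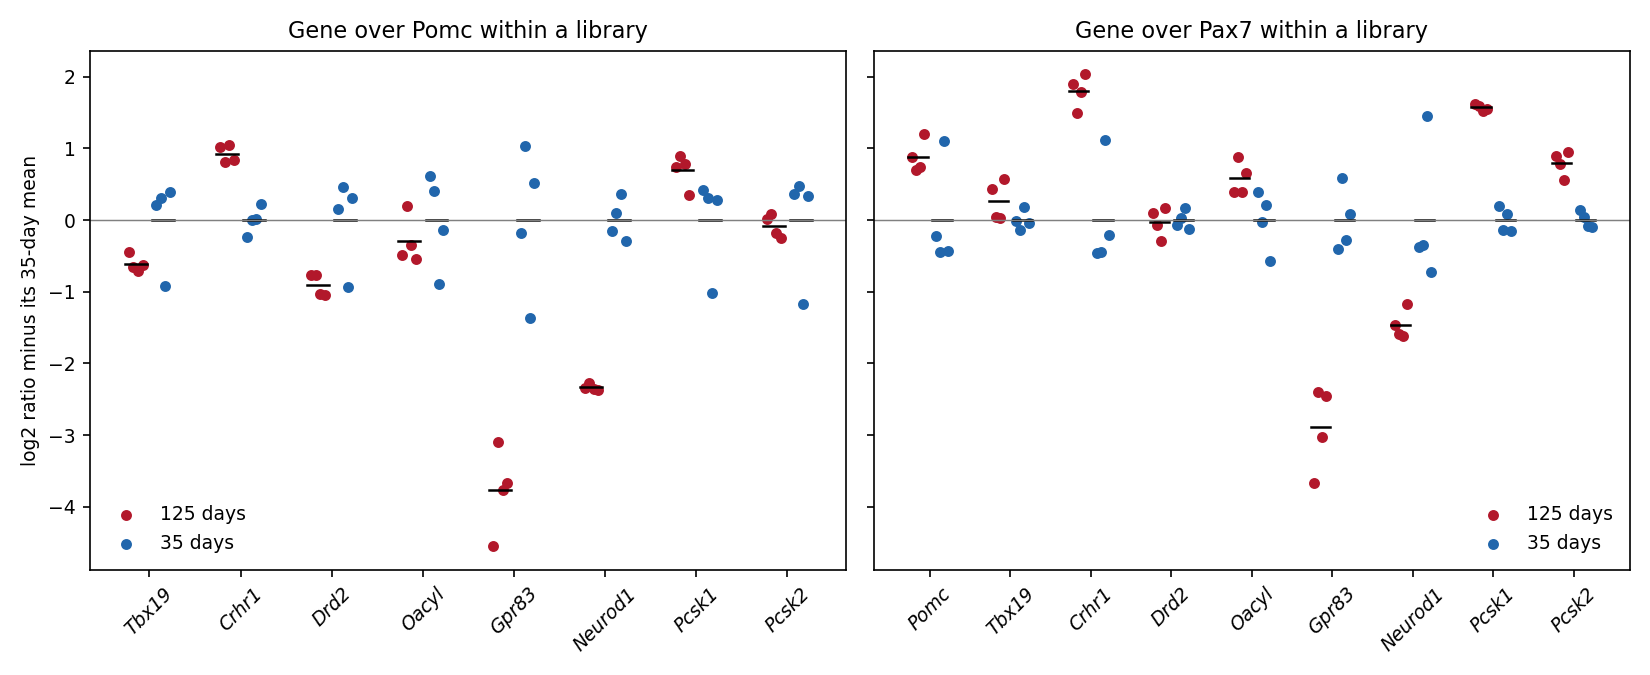
Log2 ratio of each gene over Pomc (left) and over Pax7 (right) within each library, shifted so that the 35-day mean is 0, with 125 days in red, 35 days in blue and black bars for the means. Over Pax7, Pcsk1 (difference 1.57) and Crhr1 (1.80) are separated between the ages, whereas Drd2 (-0.03) is not.

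The counts of each list around the 7 genes are to be read against the 8.85% of all genes tested that were higher and the 8.87% that were lower at 125 days, and those without 35-day replicate 3 against 15.9% higher and 14.8% lower. Among 7 genes for POMC cleavage and peptide modification, 2 rose, 1 fell and 4 did not pass, with a median log2 change of 0.38. Pcsk1, whose enzyme makes the first cuts in POMC, was at 11043 ± 1259 depth-normalized counts at 125 days and 3771 ± 756 at 35 days (SD, n = 4 each), a log2 change of 1.57 (SE 0.15). Pcsk2, whose enzyme yields alpha-melanocyte-stimulating hormone and beta-endorphin, was at 33627 ± 4725 at 125 days and 19810.0 ± 4603 at 35 days, with a log2 change of 0.79 (SE 0.19). The Pcsk2 call did not hold in the covariate fit or without 125-day replicates 1 or 4, at adjusted p from 0.0605 to 0.173. Prcp, encoding a carboxypeptidase that inactivates alpha-melanocyte-stimulating hormone, fell by 0.40 (SE 0.12). Its call was lost in 11 of 20 alternatives, among them each leave-out of 1 library apart from 125-day replicate 2 and 35-day replicate 3. Leaving out 35-day replicate 3 gave 5 that rose and 1 that fell.

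Melanocortin receptors and their accessory proteins were measured less well, with 6 of 12 tested. All 5 receptor genes, Mc1r to Mc5r, were below the filter. Mrap, encoding a melanocortin receptor accessory protein, fell by 1.15 (SE 0.35, limma adjusted p = 0.0488). Its call was lost in 10 of 19 alternatives, among them each leave-out of 1 library apart from 125-day replicate 3 and 35-day replicate 2. The other 5 did not pass, and the list's median log2 change was -0.53. Atrn, encoding the membrane protein attractin, had a log2 change of -0.04 (SE 0.23). Without 35-day replicate 3 the Atrn change was -0.31 and passed (limma adjusted p = 0.0244). Mgrn1, encoding a ubiquitin ligase of the same pathway, had a log2 change of 0.29 (SE 0.13, adjusted p = 0.14).

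Of 19 tested transcription factor genes of the POMC lineage, 4 rose and 15 did not pass, with a median of -0.01. Among those that rose were the 3 NR4A orphan nuclear receptor genes, immediate early genes whose products mediate the action of CRH on Pomc. Nr4a2 was at 5593 ± 1334 depth-normalized counts at 125 days, against 1305 ± 556 at 35 days, with a log2 change of 2.17 (SE 0.29). The changes of Nr4a1 and Nr4a3 were 1.44 (SE 0.26) and 2.18 (SE 0.49). Nr4a3 did not pass with the anterior lobe covariate (adjusted p = 0.108). The fit without 35-day replicate 3 had 5 higher and 4 lower. Hesx1, a factor of the early pituitary, was at 0 in all 8 libraries. Partners and relatives of NEUROD1 were lower in 3 of 11 tested and higher in none, against 8.87% of all genes tested that were lower, with a median of -0.28. The inhibitors Id3 (log2 change -0.94, SE 0.21) and Id1 (-0.79, SE 0.18) and the E-protein gene Tcf3 (-0.32, SE 0.08) fell. All 3 calls were lost with the anterior lobe covariate (adjusted p from 0.107 to 0.195), and that of Tcf3 also with the replicate block and without any 1 library but 35-day replicates 1 and 3. Of the 11, 6 fell once 35-day replicate 3 was left out, a fit in which 14.8% of all genes tested were lower.

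Around CRHR1, the ligand genes Crh, Ucn, Ucn2 and Ucn3 were below the filter, and Avpr1b was not analysed here. Of 25 tested genes of the CRH family and the cAMP cascade, 4 rose, 1 fell and 20 did not pass, with a median of 0.10. Crem, a cAMP-responsive factor gene, was at 6627 ± 832 at 125 days and 3095 ± 800.3 at 35 days (SE of its log2 change 0.20). The adenylyl cyclase gene Adcy5 rose by 0.76 (SE 0.13) and Crhr2, the receptor gene for urocortins, by 1.48 (SE 0.30). Crhr2 was low, at 34.9 ± 11.8 depth-normalized counts at 125 days and 11.5 ± 2.13 at 35 days. Pde4a, encoding a cAMP phosphodiesterase, rose by 0.62 (SE 0.19), a call lost in 11 of 20 alternatives, among them each leave-out of 1 library apart from 35-day replicates 3 and 4. Adcy3 fell by 0.49 (SE 0.13), a call that did not hold when 125-day replicate 1 or 3, or 35-day replicate 1, 2 or 4, was left out (adjusted p from 0.0562 to 0.0783). With 35-day replicate 3 left out, 6 rose and 2 fell.

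Of the dopamine receptor and catecholamine genes, 7 of 12 were tested, and the other dopamine receptor genes, Drd1, Drd3, Drd4 and Drd5, were below the filter. Th, encoding the rate-limiting enzyme of dopamine synthesis, was at 29.3 ± 5.43 at 125 days, against 15.6 ± 2.62 at 35 days, a rise of 0.86 on the log2 scale (SE 0.24). Maoa, which encodes an amine oxidase, rose by 0.30 (SE 0.09). Of the 7 tested, 2 rose, 1 fell and 4 did not pass, and the median was -0.06. With the anterior lobe covariate no gene of this list passed, where 14.5% of all genes tested did. The Th and Maoa calls were both lost when any 1 of 125-day replicates 1, 2 and 3 or 35-day replicate 2 was left out, that of Th also without 35-day replicate 1, and that of Maoa also without replicate 4 of either age. Leaving out 35-day replicate 3, 3 rose and 1 fell.

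Among 18 genes for inhibitory G proteins and effectors downstream of DRD2, 3 rose, 2 fell and 13 did not pass, with a median of 0.23. Kcnj5, encoding a G protein-gated potassium channel subunit, was at 1148 ± 136 at 125 days, against 682 ± 64.5 at 35 days, a rise of 0.75 on the log2 scale (SE 0.11), and was called in all 20 alternatives. Gnao1 rose by 0.43 (SE 0.13) and Gnb5 by 0.27 (SE 0.08), and Rgs10 fell by 0.58 (SE 0.14) and Gnai3 by 0.32 (SE 0.08). These 4 calls were lost with the anterior lobe covariate and without 125-day replicates 1 or 4 or 35-day replicate 1. Those of Gnao1, Gnb5 and Gnai3 were also lost without 35-day replicate 2, those of Gnao1 and Gnb5 without 125-day replicates 2 or 3, and that of Gnb5 without 35-day replicate 4. In the 7 libraries without 35-day replicate 3, 4 rose and 2 fell. With the anterior lobe covariate 4 of the 18 were higher and none lower, as other genes of the list passed in that fit. Over all genes tested, 7.18% were higher and 7.28% lower there.

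Melanotrophs also receive GABA, and 15 of 18 genes for GABA receptors and synthesis were tested, of which 4 rose, 1 fell and 10 did not pass, against 8.85% higher and 8.87% lower over all genes tested, with a median of 0.43. The receptor subunit gene Gabra3 was at 1658 ± 284 at 125 days, against 546 ± 148 at 35 days, a rise of 1.63 on the log2 scale (SE 0.21). Gabrb1 rose by 1.06 (SE 0.22) and Gabra2 by 0.90 (SE 0.27). Gabrd, the delta subunit gene, fell by 3.21 (SE 0.35), to 4.60 ± 2.57 at 125 days, against 46.6 ± 4.36 at 35 days. Gabrd passed the filter through its 35-day libraries alone, so its call adds nothing to the count of genes that fell. Gabrb1 did not pass with the anterior lobe covariate (adjusted p = 0.0733), and that of Gabra2 in 11 of 20 alternatives, among them each leave-out of 1 library apart from 35-day replicates 3 and 4. Over the libraries without 35-day replicate 3, 6 rose and 4 fell, where 30.7% of all genes tested passed.

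**Figure D5:**
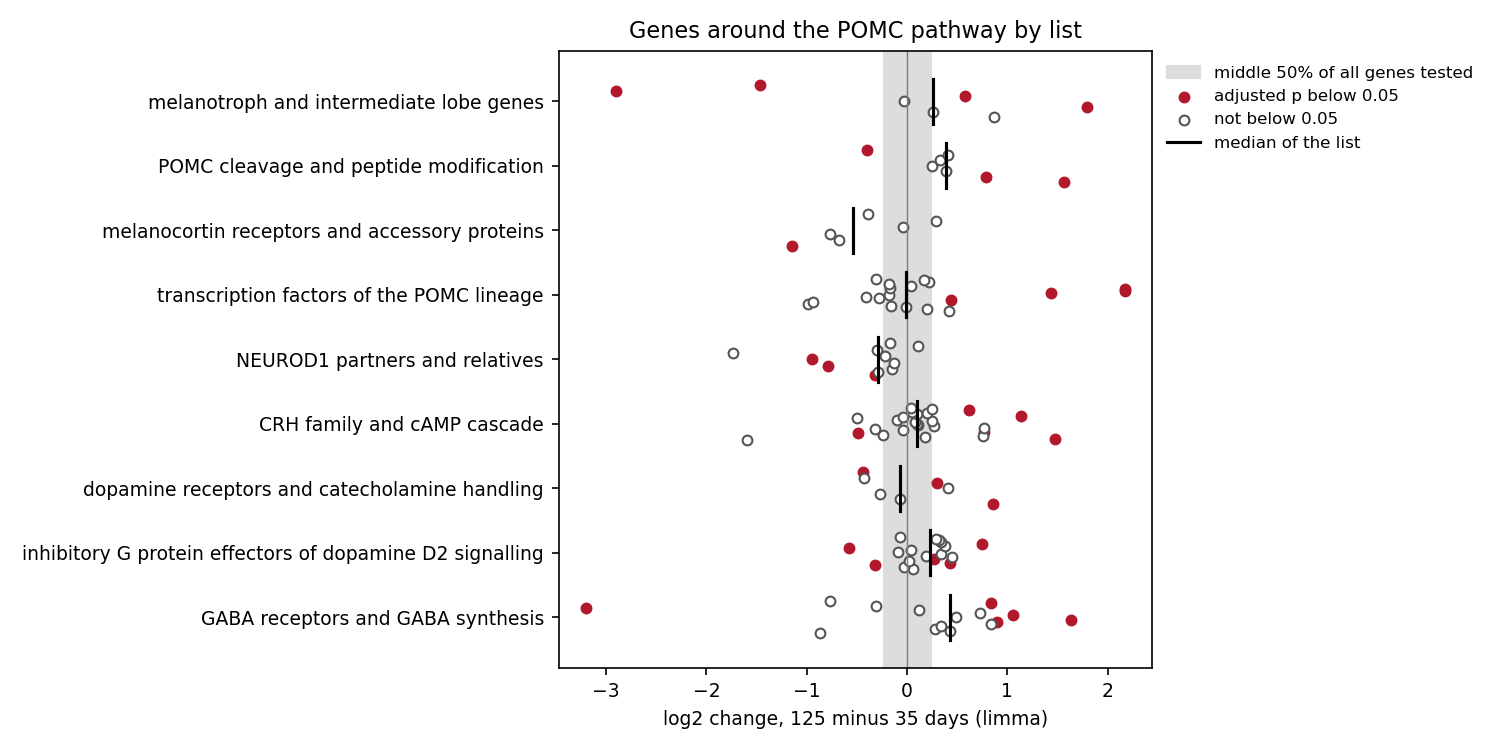
Log2 change, 125 minus 35 days, of each tested gene in the 7 genes (top) and in 8 lists around them, with filled points past the threshold, black bars at the list median and grey for the middle 50% of all genes tested. Medians run from -0.53 for melanocortin receptors and accessory proteins to 0.43 for GABA genes, with 0.26 for the 7 genes.

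Genes whose pattern over the 8 libraries was most like each of the 7 were ranked by Pearson's r of log2(value + 1), as a description, among 12806 tested genes with a mean of at least 100. The 8 points share the age difference and, for every gene, the same library and size factor. Closest to Pomc were Habp4 and Prps1 (r = 0.990 each), Mkx (0.988), Resp18 (0.986), Ddx25 (0.985), Rogdi (0.985), Rab3a (0.985), Eno3 (0.984), Rbfox3 (0.984) and Crb3 (0.983). Within ages, after the age means were taken off, their r with Pomc ran from 0.950 for Eno3 to 0.990 for Prps1. Resp18, a secretory granule protein gene of endocrine cells, was at 41688 depth-normalized counts at 125 days and 22939.5 at 35 days. Nearest to Crhr1 were Insyn2b (r = 0.995), Auh (0.994) and Trim35 (0.994). Syt9, Rapgefl1 and Acad11 were nearest to Tbx19 (0.975, 0.965 and 0.962), and Poc5, Proser3 and Tox3 to Drd2 (0.979, 0.975 and 0.963). For Oacyl they were Atp6v1g2, Lilrb3 and Zfp939 (0.982, 0.960 and 0.955), for Gpr83 Iqgap3, Itga8 and Slc15a2 (0.990, 0.989 and 0.988), and for Neurod1 Ubald2, Ndn and Cryl1 (0.998, 0.988 and 0.988).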

How the data were processed

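The authors deposited a depth-normalized signal per gene for 8 libraries. Dividing each column by the worth of 1 read returned whole reads for 100% of the values (tolerance 0.001 reads), so the signal is a read count over a library constant. The authors' means were not used. Tools named in the submitters' processing notes are HISAT2 2.2.1, featureCounts of Subread 2.0.1, Trimmomatic 0.39 and DESeq2 1.34.0, with build rn7. Neither annotation nor strandedness of counting was found in those notes, so reads of overlapping genes cannot be told apart.

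limma 3.58.1 (R 4.3.3) with an intensity trend was fitted to log2(value + 1) of the 17919 genes that reached 10 in 4 or more libraries, with age as the only term, two-sided, and Benjamini-Hochberg adjustment over all of them. Log2 changes are 125 minus 35 days. Alternatives were pseudocounts of 0.5 and 5, 2 filters, 3 scalings, no trend, count tests on the recovered reads (edgeR 4.0.16, 3170 genes called, and DESeq2 1.42.0), a replicate block, an anterior lobe covariate and leaving out each library. Ratios and shares were tested by exact permutation. The code was tested on simulated data. The 7 genes, the lists and the tests were chosen with earlier results of these data known. Named genes are the 7, up to 5 called genes per list by lowest adjusted p (and the 2 with the highest mean where fewer than 2 were called), the 3 markers of a list with the highest mean value and those at 0, and the 10 or 3 genes most like a member. Of 178 list genes, 177 have a row in the table. Some genes that the rule names are counted in their lists but not reported here. Figures were drawn with matplotlib 3.10.9.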

Additional observations from a re-analysis of the deposited data

Results flagged for a closer look

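In groups of 4 libraries, 158 sets of values were examined for 1 library far from the other 3, and 18 stood out; chance alone gives about 1 in 20. All but those of Crem and Kcnj5 were values of 35-day replicate 3. Their causes were not tested.

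In 35-day replicate 3, Pomc was at 3724079 depth-normalized counts, against 1957148 to 2248920 in the other 35-day libraries. Neurod1 was at 209 there, against 79.6 to 90.9, and Id1 at 1757, against 1096 to 1190.4. Pcsk2 was lower than in the others, at 12949 against 21432 to 22669, and so was Mgrn1, at 3265 against 4585 to 4707. Gh1 was at 975243 in that library and Cga at 67887, against at most 124177 and 19543 in the others.

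The log2 ratios over Pomc were lower in 35-day replicate 3 than in the others for Tbx19 (-9.39), Pcsk1 (-10.4) and Pcsk2 (-8.17). Over Pax7 they were higher there for Pomc (8.92) and Crhr1 (-3.87). The summed markers were highest in that library for the anterior lobe (1394981) and the marginal zone (30969). The sums for melanotrophs (3773794) and corticotrophs (3732999) were highest there too, but consist mostly of Pomc and repeat its value. The mean log2 level of the melanotroph markers, which weighs each gene alike, was lowest in that library, at 14.64, against 14.89 to 15.01 in the other 35-day libraries.

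Of the remaining values, Crem was lowest in 35-day replicate 4, at 1907, against 3330.05 to 3579 in the others of its age. Kcnj5 was highest in 125-day replicate 3, at 1349, against 1065 to 1110.3 in the others.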

How the results depend on the processing

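The Crhr1 call held under all 20 alternatives, and no result reversed its call. The Gpr83 call held under the 19 that tested it. Gpr83 passed the filter through its 35-day libraries alone, so its call adds nothing to the counts of the 7 genes below. With the anterior lobe covariate 2 of the 7 genes passed, Crhr1 and Gpr83, against 4 without it. Of all genes tested 14.5% passed with it and 17.7% without it. The covariate itself differed between the ages, with a mean of 8.26 at 125 days and 10.6 at 35 days on the log2 scale. That fit can therefore also take up part of an age change. Leaving out 1 library at a time gave 3 to 4 of the 7, 15 to 51 calls in the pathway lists (29 with all libraries) and 1894 to 5495 genes over the table (3174 with all), the highest list and table counts being without 35-day replicate 3. Other settings gave 22 to 41 pathway calls and 2592 to 4196 genes, the most in DESeq2. Replicate numbers gave no sign of pairing the samples, though such a check cannot exclude it. Same-numbered libraries had r = 0.04, 0.17, -0.00019 and -0.12 of their deviations, and other pairs ran from -0.22 to 0.22. With the replicate block 2718 genes and 4 of the 7 passed. Gpr83 rests on 3 to 7 reads per 125-day library, which limits its fold change.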
